A study of Mus musculus with 7 samples.

Results

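Immunoglobulin variable gene segments were examined in ileal scrapings of mice on a normal or a low cystine diet. They were chosen as the rows of the deposited gene count table whose gene name begins with Ighv, Igkv or Iglv, which gave 94 of 38293 rows. Of these, 59 were Igkv segments of the kappa light chain on chromosome 6, 32 were Ighv segments of the heavy chain on chromosome 12 and 3 were Iglv segments of the lambda light chain on chromosome 16. The groups were normal cys (4 mice, libraries X17SI4, X32SI4, SI9 and X1SI4) and low cys (3 mice, libraries X23SI4, X26SI4 and X10SI4). All mice were individually housed male C57BL/6NRJ mice of 8 weeks old, and all spent 1 week on the high fat AIN93G control diet before 2 weeks on a high fat diet with 0.38% (normal cys) or 0.08% (low cys) total cystine. In the low cys diet, alanine took the place of the added L-cystine. A scraping takes mucosa, so that RNA of epithelial, immune and stromal cells was measured together.

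An immunoglobulin gene is assembled in each developing B cell by joining 1 variable segment to a joining segment, in the heavy chain with a diversity segment between them, and the joined exon is spliced to a constant region. A B cell and the plasma cells that descend from it therefore transcribe mainly 1 rearranged heavy chain segment and 1 light chain segment, and the segments found in a tissue reflect which clones are present. The small intestinal lamina propria is rich in plasma cells that secrete IgA, and dividing B cells can acquire point mutations in the variable exon that their plasma cells inherit. In bulk RNA, a larger number of cells carrying a segment and more RNA per cell cannot be told apart.

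The libraries held between 14888760 and 22412703 counts on genes, and low cys libraries X26SI4 and X10SI4 were the shallowest. Markers of the epithelium were high in every library (summed level 11725 to 15851 CPM, which are counts scaled to a common library size, over 7 genes), as were Fabp6 and Slc10a2, which mark the ileum (3184 to 7808 CPM together). Over 11 B cell genes, among them Cd79a and Ms4a1, the summed level was 94.0, 76.3, 51.2 and 90.4 CPM in X32SI4, SI9, X23SI4 and X26SI4 but 15.99, 12.90 and 15.47 CPM in X17SI4, X1SI4 and X10SI4. The libraries thus stood apart in B cell transcripts in a way that did not follow the diet. No sequencing batch is given in the sources used here.

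The germline sequences of a few segments show how far their reads can be told apart. The segments shown are Ighv3-6 and Iglv1, which were among the 10 segments with the most counts in every library, Iglv2 as the near copy of Iglv1, Igkv8-27, which held the most counts over all libraries, and 3 segments of the Igkv4 family, of which Igkv4-50 stood first in the comparison of the diets while Igkv4-57 and Igkv4-61 were near copies with many counts in few libraries. Each line gives up to 300 bases at the 3′ end of the variable exon on its own strand, from GENCODE M21 (GRCm38, minus strand). Capitals mark bases that lie in a 50-base stretch, the length of a single read, that also occurs in the transcript of another gene. The reads were paired, and the second read of a pair was not taken into account. The windows are chr12:114288152-114288451, chr16:19085017-19085316, chr16:19260401-19260700, chr6:70171809-70172108, chr6:69700767-69701066, chr6:69575975-69576274 and chr6:69416893-69417192 in the order of the lines.
Ighv3-6: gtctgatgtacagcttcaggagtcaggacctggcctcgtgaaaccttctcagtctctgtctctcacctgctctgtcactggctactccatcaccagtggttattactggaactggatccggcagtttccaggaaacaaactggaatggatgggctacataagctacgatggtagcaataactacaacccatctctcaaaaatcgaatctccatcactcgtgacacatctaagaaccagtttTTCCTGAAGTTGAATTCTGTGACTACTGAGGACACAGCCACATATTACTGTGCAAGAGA
Iglv1: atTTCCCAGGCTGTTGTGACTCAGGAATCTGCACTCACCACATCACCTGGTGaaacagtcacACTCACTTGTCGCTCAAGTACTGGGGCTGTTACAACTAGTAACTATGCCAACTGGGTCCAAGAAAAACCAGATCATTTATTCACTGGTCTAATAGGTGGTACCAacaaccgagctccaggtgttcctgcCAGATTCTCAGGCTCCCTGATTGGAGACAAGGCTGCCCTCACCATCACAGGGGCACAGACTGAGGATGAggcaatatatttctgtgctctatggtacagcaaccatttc
Iglv2: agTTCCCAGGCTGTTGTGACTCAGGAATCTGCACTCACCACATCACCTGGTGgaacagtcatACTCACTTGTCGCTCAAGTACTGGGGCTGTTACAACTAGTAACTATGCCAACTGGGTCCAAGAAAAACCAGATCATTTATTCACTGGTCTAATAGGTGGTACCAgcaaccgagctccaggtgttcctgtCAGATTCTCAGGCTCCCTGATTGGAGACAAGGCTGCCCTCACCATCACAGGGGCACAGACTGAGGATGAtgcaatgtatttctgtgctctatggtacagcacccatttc
Igkv8-27: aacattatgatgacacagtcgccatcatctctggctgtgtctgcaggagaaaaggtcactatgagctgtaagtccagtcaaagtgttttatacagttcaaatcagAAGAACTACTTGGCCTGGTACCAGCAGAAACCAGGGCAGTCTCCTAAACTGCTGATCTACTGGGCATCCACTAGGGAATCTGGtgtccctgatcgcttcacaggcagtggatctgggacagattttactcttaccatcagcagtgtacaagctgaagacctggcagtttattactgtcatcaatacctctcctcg
Igkv4-50: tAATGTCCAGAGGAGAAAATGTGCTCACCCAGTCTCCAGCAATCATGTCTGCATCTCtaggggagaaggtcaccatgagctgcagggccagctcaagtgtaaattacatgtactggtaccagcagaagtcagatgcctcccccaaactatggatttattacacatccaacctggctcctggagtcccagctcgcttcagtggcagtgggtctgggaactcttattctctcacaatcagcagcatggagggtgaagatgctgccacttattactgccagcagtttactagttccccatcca
Igkv4-57: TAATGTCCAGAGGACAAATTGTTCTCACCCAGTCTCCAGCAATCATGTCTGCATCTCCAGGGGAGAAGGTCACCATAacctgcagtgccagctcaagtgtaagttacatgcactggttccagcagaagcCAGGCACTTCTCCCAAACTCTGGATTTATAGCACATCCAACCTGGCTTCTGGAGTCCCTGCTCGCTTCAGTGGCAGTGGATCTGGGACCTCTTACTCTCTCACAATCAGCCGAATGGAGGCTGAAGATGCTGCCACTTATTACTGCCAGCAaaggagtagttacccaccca
Igkv4-61: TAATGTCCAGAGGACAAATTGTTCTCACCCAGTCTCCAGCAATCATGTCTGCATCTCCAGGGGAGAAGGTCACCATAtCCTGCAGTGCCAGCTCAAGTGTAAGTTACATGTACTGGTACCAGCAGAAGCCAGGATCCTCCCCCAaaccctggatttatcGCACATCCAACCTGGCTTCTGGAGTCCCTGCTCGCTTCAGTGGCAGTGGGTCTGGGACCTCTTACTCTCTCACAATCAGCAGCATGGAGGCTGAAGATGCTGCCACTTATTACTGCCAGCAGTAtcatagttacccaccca
Iglv1 and Iglv2 were identical at 292 of 300 aligned bases (97.3%), and Igkv4-57 and Igkv4-61 at 94.4% of aligned bases. Igkv4-50 was identical to Igkv4-61 at 91.4%, but had 56 of its 300 bases in capitals against 267 of 300 in Igkv4-61.

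Over the 94 segments, the share of 50-base stretches that another gene also holds had a median of 9.50%, and it was 0 for 30 segments and over 50% for 11. It was highest for Ighv1-72 (92.5%, mostly in Ighv1-62-3). How reads that fit several places were counted is not given in the sources used here, so counts within such pairs are uncertain. All 94 segments lay on an annotated variable segment of GENCODE M21, 82 of them listed there as genes and 12 as pseudogenes. The segments named Ighv7-1 and Ighv7-3 carry each other's name in that annotation.

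Variable segments received few counts. They held 1538, 1414, 577 and 452 counts in normal cys libraries X17SI4, X32SI4, SI9 and X1SI4, and 2713, 1917 and 1890 counts in low cys libraries X23SI4, X26SI4 and X10SI4. As a share of all counts this was 0.00780%, 0.00660%, 0.00273% and 0.00202% in the normal cys libraries and 0.0124%, 0.0122% and 0.0127% in the low cys libraries. The 95% Wilson interval of the highest normal cys library (0.00742% to 0.00820%) lay below that of every low cys library, of which the lowest bound was 0.0117%. These intervals cover counting error only, since the reads carry no molecular identifiers. The groups did not overlap, with a mean of 0.00479% ± 0.00285 (SD, n = 4) in normal cys and 0.0124% ± 0.000250 (SD, n = 3) in low cys, 2.59 times as high. The normal cys mice were widely spread, with SI9 and X1SI4 lowest, whereas the 3 low cys libraries lay close together. A sum over the segments was given no test.

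The kappa segments made up most of this difference, as they made up most of the variable-segment counts in every library. Their part of these counts was 62.5% to 79.3% in normal cys and 73.97% to 76.6% in low cys, with overlap. The mean share of all counts was 2.78 times as high in low cys for Igkv, 2.47 times for Ighv and 1.27 times for Iglv. Igkv segments held 0.00488%, 0.00524%, 0.00203% and 0.00128% of all counts in the normal cys libraries and 0.00926%, 0.00935% and 0.00939% in the low cys libraries. Ighv segments held 0.00213%, 0.000915%, 0.000549% and 0.000647% against 0.00260%, 0.00237% and 0.00287%. Neither locus overlapped between the diets, but the highest normal cys value of Ighv, in X17SI4, lay near the lowest low cys value. Iglv segments held 0.000802%, 0.000448%, 0.000147% and 0.0000892% against 0.000506%, 0.000477% and 0.000430%, so that the lambda segments overlapped. The kappa counts per lambda count were 6.08, 11.7, 13.9 and 14.35 in normal cys and 18.3, 19.6 and 21.8 in low cys, without overlap.

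**Figure D1:**
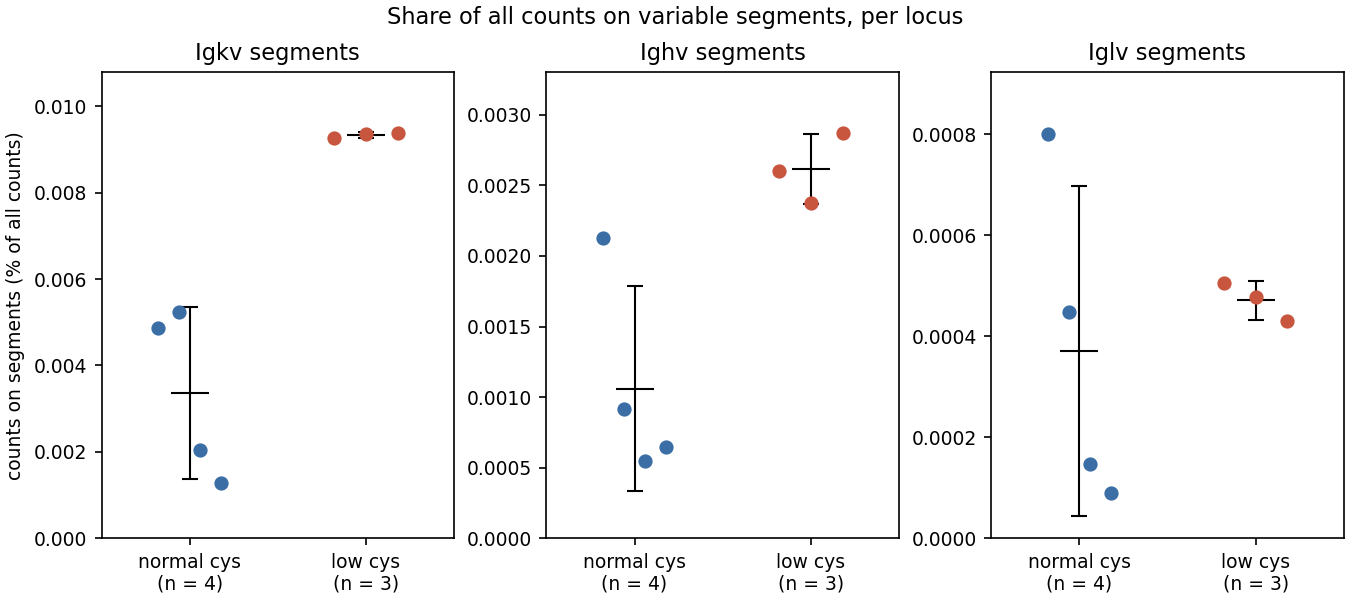
Counts on Igkv, Ighv and Iglv segments as a percentage of all counts in each library (points, in the order X17SI4, X32SI4, SI9, X1SI4 and X23SI4, X26SI4, X10SI4 from left to right), with the group mean and SD (bars). The low cys points lie above all normal cys points for Igkv (0.00926% to 0.00939% against at most 0.00524%) and Ighv, and among them for Iglv.

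The constant regions, which are transcribed together with a rearranged variable segment, differed in the same direction. Igkc, the kappa constant region, had 5336, 7525, 4282 and 1745 counts in normal cys and 9762, 9130 and 10651 in low cys (log2 fold change 1.25 ± 0.41 SE, edgeR adjusted p = 0.794). Igha, the constant region of IgA, had 10306, 11021, 6567 and 3039 counts in normal cys and 15732, 14430 and 15324 in low cys (log2 fold change 1.14 ± 0.39 SE, edgeR adjusted p = 0.794), and it held 90.1% to 98.9% of the heavy chain constant counts. For both, the low cys libraries lay above all normal cys libraries. Ighm, the constant region of IgM, had 109, 677, 429 and 136 counts in normal cys and 440, 500 and 101 in low cys, which overlapped. Iglc2, a lambda constant region, had 79, 132, 96 and 23 counts against 120, 103 and 74.

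The number of variable-segment counts per constant-region count was 0.0966, 0.0713, 0.0495 and 0.0904 in normal cys and 0.103, 0.0780 and 0.0721 in low cys. The groups overlapped, and the mean difference of 0.00727 was smaller than the SD within normal cys (0.0213, n = 4). The result was alike for kappa alone, with 0.149 ± 0.0345 Igkv counts per Igkc count (SD, n = 4) in normal cys and 0.167 ± 0.0387 (SD, n = 3) in low cys. Variable segments and constant regions thus took a larger share in low cys in a ratio that varied more between mice than between diets. Without SI9 (normal cys) or without X23SI4 (low cys), the difference in the ratio of all segments was -0.00190.

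Other cell type markers were read beside this. Igj, the J chain that links IgA into dimers, had 1947, 1639, 1444 and 688 counts in normal cys and 3047, 2954 and 3079 in low cys (log2 fold change 1.25 ± 0.33 SE, edgeR adjusted p = 0.794). It was the only 1 of 10 tested plasma cell genes with an unadjusted p under 0.05, and the summed level of the 11 plasma cell genes found overlapped (584 to 713 CPM in normal cys, 684 to 768 in low cys). Most of this sum lay on Xbp1, Txndc5 and Sdc1 (means of 188, 183 and 176 CPM in normal cys), which are not particular to plasma cells. Each plasma cell gene found other than Igj overlapped, among them Irf4, Pou2af1, Prdm1, Derl3 and Tnfrsf13b. Over the 10 tested plasma cell genes the median log2 fold change was 0.06, with 7 estimates above 0. The B cell genes overlapped too (12.9 to 94.0 and 15.5 to 90.4 CPM), with 0 of 11 tested under that threshold. Among stromal genes, 3 of 6 tested had an unadjusted p under 0.05, all higher in low cys (Dcn, Col3a1 and Col6a1), and the summed level of 7 genes was 4.73 to 10.5 CPM in normal cys and 15.3 to 21.9 CPM in low cys, without overlap. The summed level of the epithelial markers was lower in low cys without overlap (14613 to 15851 against 11725 to 13985 CPM), with 1 of 7 tested under the threshold. Of these genes, Vil1 and Krt20 did not overlap, while Cdh1, Krt19, Cdx2, Epcam and Krt8 did. The only estimate above 0 was that of Krt19 (log2 fold change 0.20). Smooth muscle markers overlapped (2.34 to 12.1 and 5.63 to 38.2 CPM), with 2 of 6 tested higher. T cell genes overlapped too (65.6 to 79.6 and 49.1 to 75.8 CPM), with 0 of 8. The part of the stromal and epithelial differences in the values of the variable segments was not tested.

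Next, the number of segments was compared. At least 1 count was found on 62, 59, 54 and 44 of the 94 segments in the normal cys libraries and on 63, 67 and 63 in the low cys libraries. The groups did not overlap, and the highest normal cys library (X17SI4) lay just below the lowest low cys libraries. The mean difference of 9.58 segments was 6 without X1SI4. Over all libraries 81 segments had a count, 31 had a count in every library and 13 had none. For a segment with 0 counts, the limit of 3 counts allows a share of 0.0000134% to 0.0000201% of a library's counts. Segments with at least 10 counts numbered 30, 27, 17 and 15 in normal cys and 41, 38 and 34 in low cys. When every library was thinned to the smallest total count (14888760), 59.7, 56.0, 51.9 and 39.4 segments were expected in normal cys and 61.4, 66.7 and 63.0 in low cys.

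Detection follows the number of counts on the segments, which differed between the diets. In 452 variable-segment counts from each library, the number in X1SI4, the expected number of segments was 50.2, 48.8, 52.7 and 44.0 in normal cys and 51.5, 54.3 and 50.9 in low cys. The groups then overlapped, and the difference of 3.30 segments was smaller than the SD within normal cys (3.65, n = 4). The 6 pseudogenes with a count had at most 4 counts in any library, and 6 other pseudogenes had none. Of the 82 segments annotated as genes, 7 had no count, among them Ighv12-3, Igkv5-37 and Igkv7-33, which are named here after their values were seen.

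**Figure D2:**
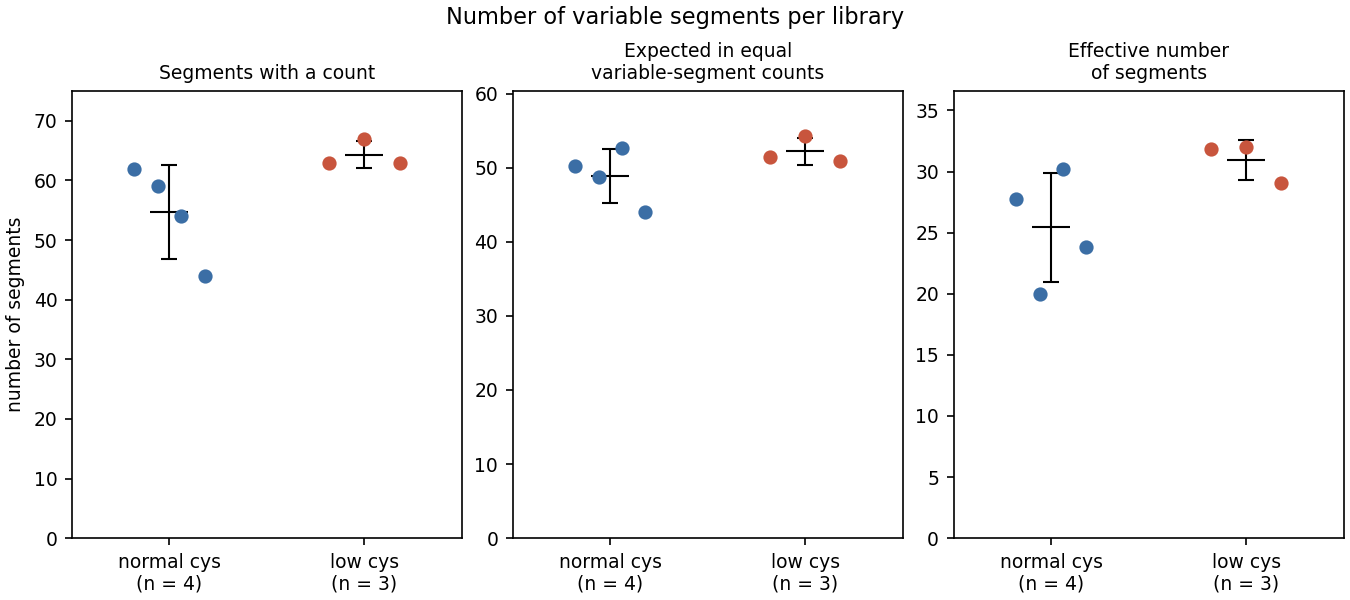
Number of segments with a count, expected number in 452 variable-segment counts, and effective number of segments (vertical axes, from 0) for each library (points), with the group mean and SD (bars). The low cys libraries lie above all normal cys libraries for the first measure (63 to 67 against 44 to 62) and overlap with them in the others.

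Counts were spread over many segments in both groups. The segment with the most counts held 12.5%, 25.6%, 14.2% and 11.5% of variable-segment counts in normal cys and 11.8%, 13.4% and 11.3% in low cys. The 3 leading segments held 33.3%, 48.4%, 32.4% and 31.2% against 29.5%, 29.5% and 29.3%. On this measure the groups did not overlap, with X32SI4 far above the other libraries. The 10 leading segments held 62.6%, 69.0%, 57.5% and 67.0% against 56.5%, 57.6% and 62.1%, and the 20 leading segments 81.2%, 84.2%, 76.8% and 88.1% against 78.1%, 77.2% and 82.1%, both with overlap. The mean share on the leading 10 was 64.1% ± 5.10 (SD, n = 4) in normal cys and 58.7% ± 2.99 (SD, n = 3) in low cys.

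The effective number of segments, which is the number of equally used segments that would give the same Shannon entropy, was 27.8, 20, 30.2 and 23.8 in normal cys and 31.8, 31.99 and 29.03 in low cys. The groups overlapped, since SI9 lay above X10SI4, and the means were 25.4 ± 4.47 (SD, n = 4) and 30.9 ± 1.67 (SD, n = 3). The inverse Simpson index, which weights the leading segments more, was 17.7, 9.27, 18.3 and 17.2 against 21.2, 20.2 and 19.3, without overlap. The low value of X32SI4 came with its 362 counts on Igkv4-57 and 243 on Igkv8-27.

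**Figure D3:**
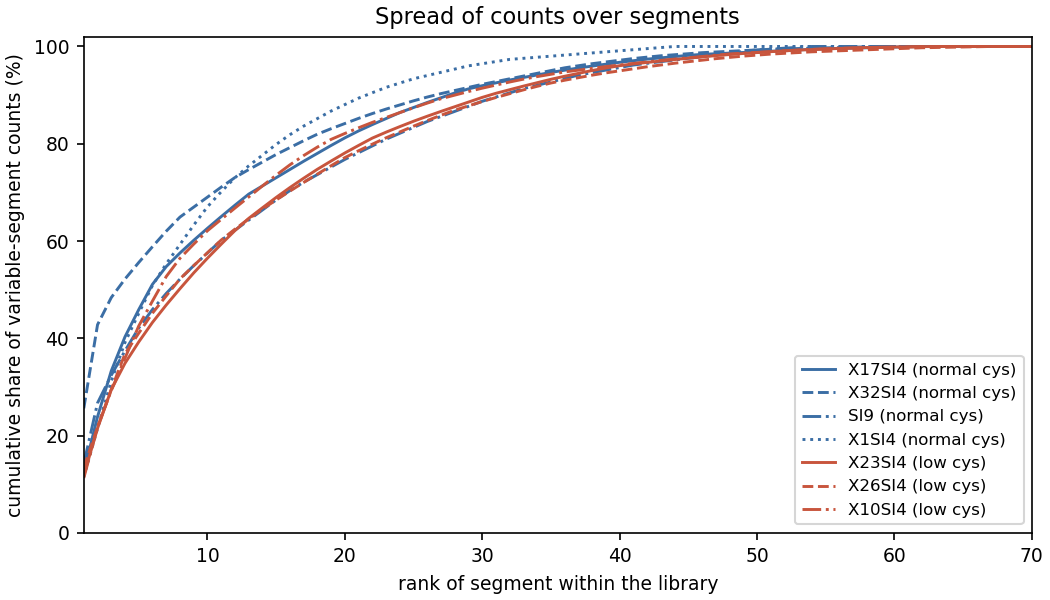
Cumulative share of variable-segment counts (vertical axis, %) against the rank of the segments within each library (horizontal axis), with normal cys in blue and low cys in red. X32SI4 rises fastest, with 48.4% on 3 segments, the curves of SI9 and the low cys libraries X23SI4 and X26SI4 lie close together (57.5%, 56.5% and 57.6% on 10 segments), and X1SI4 reaches 88.1% on 20 segments.

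Which segments led differed between mice of the same diet. In the 7 libraries, 5 different segments ranked first and 27 were among the leading 10 of at least 1 library, of which 11 were so in 1 library only. Igkv4-57 led in normal cys X32SI4 (25.6%, 95% Wilson interval 23.4% to 27.9%) and in low cys X23SI4 (11.8%, 10.6% to 13.1%), and Igkv8-27 led in normal cys SI9 (14.2%, 11.6% to 17.3%) and in low cys X26SI4 (13.4%, 11.95% to 15.01%). Igkv8-24 led in X17SI4 (12.5%, 10.9% to 14.2%), Igkv5-48 in X1SI4 (11.5%, 8.88% to 14.8%) and Igkv5-39 in X10SI4 (11.3%, 9.92% to 12.8%). Each diet thus had a mouse led by Igkv4-57 and a mouse led by Igkv8-27. Ighv3-6 and Iglv1 were among the leading 10 in all 7 libraries.

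A pair of libraries had between 42.0% and 64.3% of their variable-segment usage in common, counted as the sum over segments of the smaller of the 2 shares. The median was 51.5% for the 6 pairs within normal cys, 49.99% for the 3 pairs within low cys and 53.9% for the 12 pairs across the diets. By these medians, segment usage was not more alike within a diet than across the diets. The pairs are not independent, since each library enters several. The 3 low cys libraries shared 3 of their leading 10 segments in each pair, and the normal cys pairs shared 4 to 6.

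**Figure D4:**
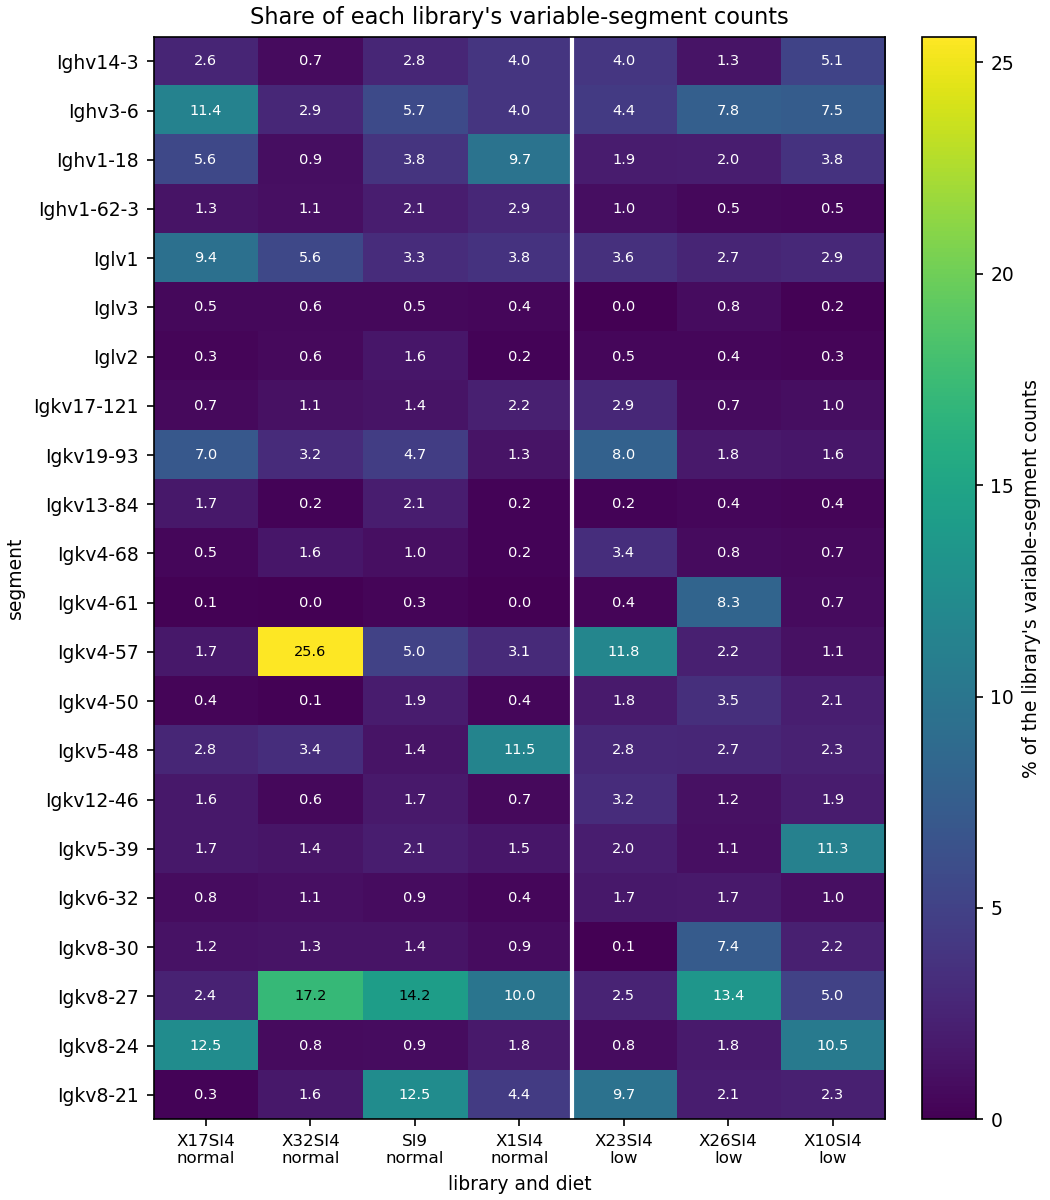
Share of each library's variable-segment counts (%, colour and printed value) on the 22 segments named here (rows, in chromosome order) for the 4 normal cys and 3 low cys libraries (columns, split by the white line). Single cells stand out within a row, such as Igkv4-57 in X32SI4 (25.6%), Igkv4-61 in X26SI4 (8.3%) and Igkv5-39 in X10SI4 (11.3%), while Ighv3-6 holds at least 2.9% in every library.

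Among the 56 segments with at least 20 counts over the libraries, 17 had over 50% of their summed CPM in 1 library, and all 17 of these libraries were low cys (3 in X23SI4, 8 in X26SI4 and 6 in X10SI4). Igkv4-61 had 2, 0, 2 and 0 counts in normal cys and 10, 159 and 14 in low cys, so that X26SI4 held 86.7% of its CPM. Ighv4-1, Igkv4-90 and Igkv6-29, named after their values were seen, had 71.5%, 73.7% and 68.4% in 1 library each. When each library was first scaled to its own variable-segment counts, 15 of the 56 had over 50% in 1 library, of which 1 was in X17SI4, 2 in X32SI4, 2 in X23SI4, 5 in X26SI4 and 5 in X10SI4. Within normal cys, the CV of CPM had a median of 90.3% over the 35 segments that passed the filter on low counts, and within low cys of 57.9%. The same medians over the 4770 genes in the same range of mean counts were 36.3% and 25.6%. Since the filter could keep a segment on the low cys libraries alone, the medians of the diets cannot be set against each other.

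The segments were then compared one by one between the diets with edgeR. The filter on low counts, which asks for about 10 counts in at least 3 libraries, kept 35 of the 94 segments (28 Igkv, 6 Ighv and 1 Iglv), and since there were 3 low cys libraries it could keep a segment on the low cys libraries alone. No segment had an adjusted p under 0.05, and the smallest was 0.443. This count of 0 stood against 0% of all 14869 genes tested. At an unadjusted p under 0.05, 9 segments were higher in low cys, against 2.66% of all genes tested, and 0 were lower, against 2.83%. The median log2 fold change of the 35 was 1.19 and that of all genes tested 0.01. Of the 35 estimates, 34 were above 0 (97.1%), against 51.2% of all genes tested. By locus the median was 1.30 over the 28 Igkv segments and 0.92 over the 6 Ighv segments, and Iglv1 alone had 0.14. With DESeq2, the tool of the study, 1 segment (Igkv4-50) had an adjusted p under 0.05, against 0.0728% of 21965 genes.

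Over the 81 segments with a count, before any filter, the mean CPM was higher in low cys for 65 (80.2%), against 51.9% of the 22796 genes with a count. The diets were fully separated with low cys higher in 13 segments, against 3.22% of these genes, and with low cys lower in 0 segments, against 2.61%. Of the 13, 9 were Igkv and 4 were Ighv segments, and 5 passed the filter. Segments with counts in normal cys libraries only numbered 9 and those in low cys libraries only 6.

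Igkv4-50 (chr6:69700767-69701287) stood first in both fits. It had 6, 2, 11 and 2 counts in normal cys and 50, 67 and 40 in low cys, so that every low cys library had more counts than the highest normal cys library. Its level was 0.270 ± 0.231 CPM (SD, n = 4) and 2.94 ± 1.12 CPM (SD, n = 3), with a log2 fold change of 3.44 ± 0.59 SE (edgeR adjusted p = 0.443, DESeq2 adjusted p = 6.86e-05). With 2.31% of its stretches shared with another gene, it was among the segments whose reads can mostly be told apart. It was no leading segment in normal cys (0.1% to 1.9% of variable-segment counts) and held 1.8% to 3.5% in low cys.

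Igkv6-32, Igkv12-46 and Igkv17-121 also did not overlap between the diets in CPM. Their edgeR adjusted p was 0.794, as it was for Igkv5-48 and the segments with the next smallest p, and values in parentheses are log2 fold changes. Igkv6-32 had 13, 15, 5 and 2 counts in normal cys and 45, 33 and 19 in low cys (1.98 ± 0.56 SE). Igkv12-46 had 25, 8, 10 and 3 against 88, 23 and 36 counts, where X26SI4 lay below X17SI4 in counts and above it in CPM (2.08 ± 0.62 SE). Igkv17-121 had 10, 16, 8 and 10 against 78, 14 and 18 counts, where X26SI4 lay below X32SI4 in counts and above it in CPM (1.70 ± 0.50 SE, and 0.92 without X23SI4). Igkv5-48 did not overlap in CPM either, with 43, 48, 8 and 52 against 76, 52 and 44 counts and a smaller estimate (0.74 ± 0.48 SE, and 0.41 without SI9).

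The other segments with the smallest p overlapped, and some had most of their low cys counts in 1 library. Igkv5-39 had 26, 20, 12 and 7 counts in normal cys and 55, 21 and 213 in low cys (2.82 ± 0.81 SE, and 1.14 without X10SI4). Igkv8-30 had 19, 19, 8 and 4 against 2, 141 and 42 (2.62 ± 1.08 SE, 1.14 without X26SI4 and 0.94 with limma-voom), so that low cys X23SI4 had fewer counts than any normal cys library. Igkv4-68 had 7, 22, 6 and 1 against 91, 15 and 13 (2.08 ± 0.79 SE, and 1.03 without X23SI4). Ighv14-3, the heavy chain segment with the smallest p, had 40, 10, 16 and 18 against 109, 25 and 97 (1.95 ± 0.57 SE). A further segment with an unadjusted p under 0.05 was Igkv15-103, named outside the rule (log2 fold change 1.91). The groups overlapped in all of these.

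**Figure D5:**
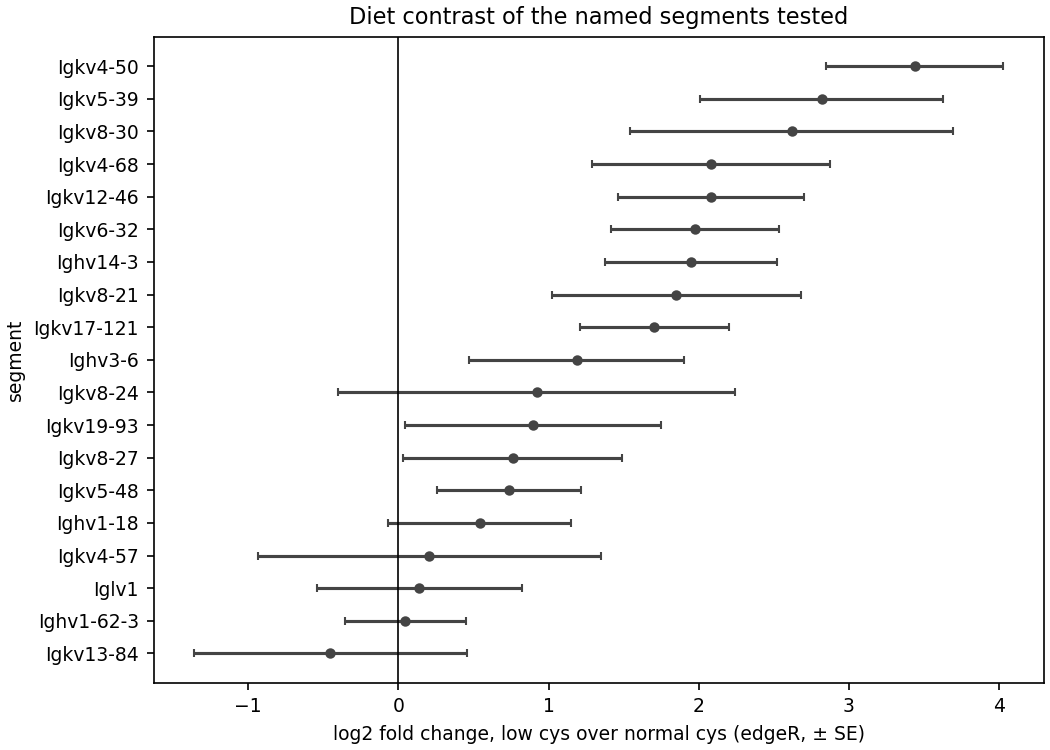
Log2 fold change of low cys over normal cys (horizontal axis, edgeR estimate with SE) for the 19 named segments that passed the filter. Estimates run from -0.45 (Igkv13-84) to 3.44 (Igkv4-50), and none had an adjusted p under 0.05.

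The segments with the most counts varied between mice on both diets. Igkv4-57 had 26, 362, 29 and 14 counts in normal cys and 320, 43 and 21 in low cys (0.21 ± 1.14 SE). Igkv8-27 had 37, 243, 82 and 45 against 68, 257 and 95 (0.76 ± 0.73 SE), and Igkv8-24 had 192, 11, 5 and 8 against 23, 35 and 199 (0.92 ± 1.32 SE). In each of these 3 segments, 1 library of each diet was far above the others. Igkv8-21 had 4, 23, 72 and 20 against 263, 40 and 43 (1.85 ± 0.83 SE), and Igkv19-93 had 108, 45, 27 and 6 against 216, 34 and 30 (0.89 ± 0.85 SE). Ighv3-6, the heavy chain segment with the most counts, had 175, 41, 33 and 18 against 119, 149 and 141 (1.19 ± 0.72 SE), where normal cys X17SI4 had the most counts of all libraries and in CPM lay among the low cys libraries (9.14 CPM against 4.86 to 9.31 CPM). Without X17SI4 the estimate for Ighv3-6 was 2.37, and without X23SI4 that for Igkv8-21 was 0.83. Ighv1-18 had 86, 13, 22 and 44 against 52, 39 and 71 (0.54 ± 0.61 SE, from 0.13 without X10SI4 to 1.24 without X17SI4). Among these 7 segments the edgeR adjusted p was lowest for Ighv3-6 and Igkv8-21 (adjusted p = 0.794) and highest for Igkv4-57 (adjusted p = 0.971).

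The lambda segments and the segments with the lowest estimates did not differ beyond their spread. Iglv1 (chr16:19085017-19085460) had 145, 79, 19 and 17 counts in normal cys and 97, 51 and 55 in low cys, or 3.24 ± 3.15 CPM (SD, n = 4) and 3.56 ± 0.386 CPM (SD, n = 3), with a log2 fold change of 0.14 ± 0.68 SE (edgeR adjusted p = 0.964). A noncoding RNA, 2010309G21Rik, is annotated on the other strand across it. Iglv2 had 5, 9, 9 and 1 against 13, 8 and 6 counts, and Iglv3 had 8, 8, 3 and 2 against 1, 16 and 3, and neither passed the filter. Ighv1-62-3 had 20, 15, 12 and 13 against 26, 10 and 9 counts (0.05 ± 0.40 SE), with 69.4% of its stretches shared. Igkv13-84, the only 1 of the 35 with an estimate below 0, had 26, 3, 12 and 1 against 6, 8 and 7 (-0.45 ± 0.91 SE).

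Some families of segments, which group related sequences, held much of the counts. Of the counts on the 94 segments, the 19 Igkv4 segments held 25.0% and the 7 Igkv8 segments 19.4%. Next came Ighv3 (7.06%, 3 segments), Ighv1 (6.90%, 9 segments) and Igkv5 (6.45%, 3 segments). Variable segments under another name were not included, so family sizes and shares over all variable segments may differ. Igkv4 held 15.4%, 37.0%, 17.5% and 14.4% of a library's variable-segment counts in normal cys and 29.6%, 29.2% and 17.8% in low cys. Igkv8 held 16.4%, 21.1%, 33.6% and 17.04% against 13.2%, 24.8% and 20.1%. Both shares overlapped between the diets. In CPM, Igkv4 was 11.1 ± 9.30 (SD, n = 4) in normal cys and 29.8 ± 7.13 (SD, n = 3) in low cys, with overlap, as Ighv3 and Ighv1 also overlapped. Igkv8 was 10.1 ± 4.56 (SD, n = 4) in normal cys and 22.9 ± 7.63 (SD, n = 3) in low cys, 2.26 times as high and without overlap, and Igkv12, with 5 segments, was 0.923 ± 0.920 and 3.99 ± 1.37, also without overlap. Of the 28 families with a count, 6 did not overlap, each higher in low cys, namely Igkv8, Igkv5, Igkv12, Ighv7, Ighv4 and Ighv13. The share for single genes with a count was 3.22%, though a family can sum several segments. Ighv4 and Ighv13 had 1 segment with a count each, so each repeats a segment among the 13 fully separated above.

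The place of a segment in its locus was described as well, since kappa segments lie in both orientations and are joined by deletion or inversion. The 44 Igkv segments on the strand opposite to the joining segments held 85.5% of the Igkv counts, with 78.0%, 92.7%, 80.7% and 76.7% in normal cys and 84.3%, 85.6% and 89.5% in low cys. The 20 Igkv segments nearest to the joining segments held 39.0%, 38.9%, 56.3% and 37.6% of Igkv counts in normal cys and 31.4%, 42.1% and 60.4% in low cys, which overlapped. The 11 Ighv segments nearest to the joining segments held 12.9%, 10.2%, 20.7% and 20% of Ighv counts in normal cys and 33.6%, 25.7% and 31.3% in low cys, without overlap. The heavy chain counts behind these shares were few (116 to 571 in a library). Most of the low cys counts on the nearest 11 lay on 3 segments, of which Ighv4-1 and Ighv7-3 are named after their values were seen. In X23SI4, X26SI4 and X10SI4, Ighv14-3 had 109, 25 and 97 counts, Ighv4-1 had 59, 6 and 3, and Ighv7-3 had 1, 50 and 23. Variable segments under another name were not included in these shares.

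Variable segments of the T cell receptor, which are rearranged in T cells in the same manner, served as a comparison. Their 91 rows held 161, 147, 127 and 161 counts in normal cys and 132, 113 and 103 in low cys, or 0.000601% to 0.000817% and 0.000602% to 0.000719% of all counts. The groups overlapped, and 37 to 39 segments against 31 to 39 had a count. Of these rows 1 passed the filter, with a log2 fold change of -0.16. Of the immunoglobulin joining and diversity segments 30 rows were listed, with 15 to 56 counts in a normal cys library and 33 to 85 in a low cys library.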

How the data were processed

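RNA of 7 ileal scrapings (4 normal cys, 3 low cys, groups from the labels) was sequenced in poly(A)-selected stranded libraries. The authors trimmed the reads with Trim Galore (version 0.6.5), removed rRNA reads with SortMeRNA, aligned to GRCm38 with STAR, counted with featureCounts and the Ensembl 70 annotation, and deposited raw counts per gene. The strand setting and the treatment of reads with several places are not given in the sources used here.

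From these counts, genes were filtered with filterByExpr (minimum count 10, minimum total 15), normalized by TMM and compared by the quasi-likelihood test of edgeR (version 4.0.16, R 4.3.3, robust, no covariate), with Benjamini-Hochberg adjustment over 14869 genes. The study's methods name DESeq2, which was an alternative here (version 1.42.0), as was limma-voom (limma version 3.58.1). CPM are counts scaled by the TMM-adjusted library size. The SE of a log2 fold change was derived as its absolute value divided by the square root of the F statistic of the edgeR test. The fit was tested on simulated data. Depth was 14888760 to 22412703 counts per library, and no libraries were identical. Each library is named in the labels as a separate sample and the paper describes scrapings per mouse.

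The segments and lists were chosen with earlier results of these data known. Segments named are the 3 with the most counts in each library, all Iglv segments, the 8 tested with the smallest edgeR p, the 3 tested with the lowest log2 fold change and those with a DESeq2 adjusted p under 0.05. Of the genes to be named outside the segments, Ighd, Iglc1, Iglc3 and Mzb1 were not found by name or position and are not reported here, while Ighg1, Ighg2b, Ighg2c and Ighg3 are given in the closing section. Igha is listed in the table under a clone-based name and was found by its position. Another gene of the B cell list is not reported here and was left out of its sum. Sums over the segments were given no test. Sequences are from GENCODE M21 transcripts.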

Additional observations from a re-analysis of the deposited data

Results flagged for a closer look

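Among the 4 normal cys libraries, 1 library lay far from the other 3 in 7 of 37 values examined (Dixon's ratio above its 95% critical value). Chance gives about 1 in 20 for independent values chosen beforehand, which these were not. Several segments were named because they led in 1 library, and measures of the same library overlap in what they count. The count of 7 can therefore not be set against chance. In X32SI4 the 3 leading segments held 48.4% of variable-segment counts, against at most 33.3% in the others, and the inverse Simpson index was 9.27, against at least 17.2. X32SI4 also had the highest level of Igkv4-57, 16.4 CPM against at most 1.52 CPM. In X17SI4, Igkv8-24 was at 10.03 CPM (at most 0.500 CPM in the others), Ighv3-6 at 9.14 CPM (at most 1.86) and Ighv1-62-3 at 1.05 CPM (at most 0.681). In SI9, Igkv5-48 was at 0.421 CPM, against at least 2.18 CPM in the others.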

How the results depend on the processing

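No paired analysis was possible because the labels share no replicate numbers between the diets. With DESeq2, 1 segment had an adjusted p under 0.05 in place of 0, and Igkv4-50 was that segment. The number of segments higher in low cys at an unadjusted p under 0.05 was 9, and 20 without a filter on low counts, 20 with DESeq2, and 7 to 14 when 1 library was left out, with 14 without X17SI4. Left-out libraries gave 0 segments at an adjusted p under 0.05 throughout. With the 130 variable segments under another name added, an alternative chosen after seeing the data, the difference in share was 0.0186 percentage points in place of 0.00763, and 24.1 more segments were detected in low cys in place of 9.58. As ratios of low cys to normal cys, the share was at 2.35 in place of 2.59 and the number detected at 1.16 in place of 1.18. The effective number then differed by 6.40 and the share on the leading 10 by -2.35 percentage points, against 5.51 and -5.33. The difference in variable-segment counts per constant-region count ran from -0.00190 to 0.0138 over left-out libraries. The 111 other values of sums, counts and indices moved by less than the spread between mice or by less than 1.5 times. Of the named segments, the sign of the log2 fold change turned in 7 when 1 library was left out, with ranges of -0.29 to 0.25 (Ighv1-62-3), -0.18 to 0.98 (Iglv1), -0.20 to 1.80 (Igkv19-93), -0.84 to 0.54 (Igkv13-84), -1.30 to 2.31 (Igkv4-57), -0.12 to 1.57 (Igkv8-27) and -0.85 to 3.75 (Igkv8-24), and Igkv13-84 was at 0.35 with limma-voom. Leaving out a library leaves fewer samples, and the cause of the other changes was not tested. Few counts limit single segments: the largest was 362 in a library.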

Other observations

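A further 130 rows lay on variable segments of the annotation but carried other names, mostly those of clones. They held 3324, 1813, 1091 and 1217 counts in normal cys and 4172, 3051 and 3194 in low cys, more than the 94 named segments in every library. Their summed level was 92.9 ± 55.1 CPM (SD, n = 4) and 189 ± 17.9 CPM (SD, n = 3), and X17SI4 (174 CPM) lay above X23SI4 (170 CPM), so that the groups overlapped. Of these rows 66 passed the filter, 13 had an unadjusted edgeR p under 0.05 and were higher in low cys (against 2.66% of all genes tested), 0 were lower (against 2.83%), and the median log2 fold change was 0.98. The named segments thus held 27.1% to 43.8% of the counts on all variable segments. Over all 224 rows, 166, 158, 145 and 128 segments had a count in normal cys and 173, 173 and 174 in low cys, and the effective number was 76.2, 67.2, 81.4 and 55.3 against 82.5, 82.8 and 64.0.

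Of the constant regions of IgG, Ighg2b, Ighg1 and Ighg2c were highest in the libraries with the most B cell transcripts. Ighg2b had 59, 346, 180 and 47 counts in normal cys and 323, 295 and 47 in low cys, Ighg1 had 21, 109, 62 and 4 against 53, 79 and 10, Ighg3 had 1, 23, 31 and 2 against 6, 24 and 7, and Ighg2c had 6, 11, 18 and 2 against 23, 16 and 2. For each of Ighg2b, Ighg1 and Ighm, the libraries with the most counts were X32SI4, SI9, X23SI4 and X26SI4, which were also the 4 with the highest B cell sums.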
